A study of Mus musculus with 30 samples.

Results

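Day 4 embryoid bodies of the Pali1/2 double knockout line (Pali1-/-, Pali2-/-) were compared with those of the Pali1 knockout line (Pali1-/-, called the single knockout here), gene by gene. The comparison uses 4 of the 30 libraries of the series, 2 of each line, chosen by line and day from the sample titles. Both lines lack Pali1, and the double knockout lacks Pali2 as well. By this design, loss of Pali2 cannot be told apart from other differences between the lines. Pali wild type embryoid bodies of day 4 (2 libraries) give a further level, and the same lines in stem cell culture (day 0) and at day 8 give the other times. The fit behind the p-values used all 30 libraries, which also include an Aebp2 gene trap line and the C129 wild type line. Embryoid bodies are aggregates of mouse embryonic stem cells that differentiate once the cytokine LIF is withdrawn and the cells are kept off the plate. The series calls its libraries biological duplicates. The labels do not say whether a genotype was represented by more than 1 clone. A p-value here measures the spread between duplicate libraries, pooled over 15 groups (5 lines at 3 days), and not between clones.

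PALI1 and PALI2 are proteins made from the Lcor and Lcorl loci. They bind Polycomb repressive complex 2 (PRC2), the enzyme that methylates lysine 27 of histone H3 at developmental genes that are kept silent. In embryonic stem cells PRC2 sits mostly at promoters rich in CG dinucleotides, and many of its targets are transcription factor genes of later lineages. In early embryoid bodies the naive pluripotency programme gives way to that of the primed epiblast, from which neural and other fates arise.

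The description of double knockout replicate 1 names culture with LIF, while its title and source name day 4 embryoid bodies, and the title was followed. Fgf5, a marker of the primed epiblast, was at 2267 and 2130.3 normalised counts in the double knockout at day 4, against 58.6 and 60.0 in the same line at day 0, so replicate 1 lay at the level of replicate 2. The 2 double knockout libraries correlated at 0.948 and the 2 single knockout libraries at 0.958 (Pearson, log2 scale, across genes, which are not independent replicates). Column totals of the 30 libraries ran from 15470082 to 18336791 normalised counts. Lcor was at 69.2 and 71.3 normalised counts in the double knockout and 90.0 and 56.9 in the single knockout, and Lcorl at 545 and 641 in the double knockout and 652 and 606 in the single knockout. Neither was called (limma, adjusted p = 1 and 0.940). Both loci also make transcripts that lack PALI sequence, and 1 value per gene covers them all, so the deletions cannot be checked from it.

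Of 15712 genes tested, 217 differed between the knockouts at day 4 (limma, Benjamini-Hochberg adjusted p under 0.05 over all genes tested). In the double knockout 146 were higher (0.929% of the genes tested) and 71 were lower (0.452%). These calls come from the fit over all 30 libraries. Fitted alone, the 4 compared libraries gave 0 calls (limma, lowest adjusted p = 0.0759). Differences are double minus single knockout of log2(normalised count + 4), a scale that understates the change of low genes. The median difference over all genes tested was 0.0045. In each of the 217 genes the groups of libraries did not overlap, which was also so for 42.5% of all genes tested. Without double knockout replicate 1, the library with the contrary description, 158 genes were called, 112 higher and 46 lower, and 115 of them were among the 217. Without double knockout replicate 2 the count was 127, with 65 higher and 62 lower. Without single knockout replicate 1 it was 62, with 50 higher and 12 lower, and without single knockout replicate 2 it was 100, with 80 higher and 20 lower. The falls thus dropped to 12 and 20 under these omissions, against 71. Of 52 named genes that were called, 13 kept their call whichever of the 4 libraries was left out, and 15 lost it whichever was left out.

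**Figure D1:**
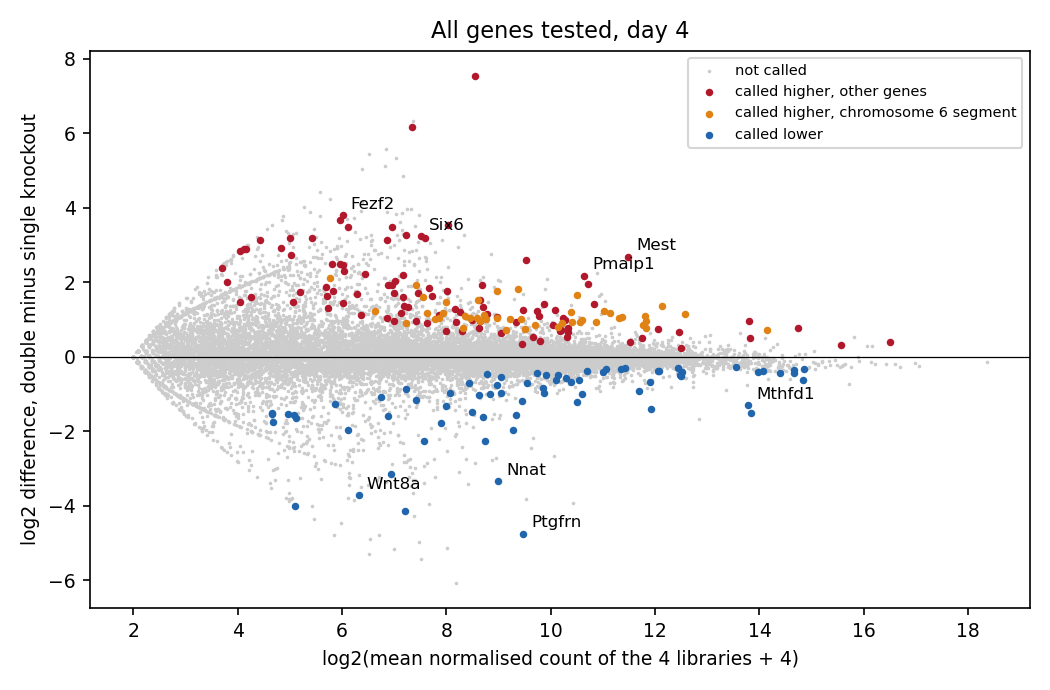
Each point is 1 of 15712 genes, with its mean level in the 4 libraries on the x axis and its log2 difference, double minus single knockout, at day 4 on the y axis. Coloured points are the 146 genes called higher, with those of a chromosome 6 segment in orange, and the 71 called lower.

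The higher genes fell into a group on chromosome 6 and a group spread over the genome. On chromosome 6, 45 of the 146 rises (30.8%) and 0 of the 71 falls lay in a segment of 31.6 Mb that held 0.885% of the genes tested. Elsewhere 101 genes rose and 71 fell. The 45 segment rises became 28 without double knockout replicate 2 and 22 without single knockout replicate 1, and the 101 other rises became 37 and 28 under the same omissions and 48 without single knockout replicate 2. With the genes of the segment left out of the fit, 128 genes were called, 79 higher and 49 lower. The segment runs from Cul1 to Gm20362 (chromosome 6, 47453732 to 79035869, GRCm38.p6, the assembly behind mm10). It was found after the values were seen, so its values are a description with no test.

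Of 80 segment genes with a mean of at least 50 normalised counts, 75 were higher in the double knockout. Their median log2 difference was 0.96 (quartiles 0.73 and 1.17), against -0.0006 for 387 other genes of chromosome 6. The median ratio of the single to the double knockout was 0.513. Summed over the segment genes, the double knockout had 123556 and 126491 normalised counts, the single knockout 65009 and 70522, and wild type 123310 and 129868. Both single knockout libraries lay far below the other 4, which lay together. Without double knockout replicate 1 the median difference was 1.01.

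Among the segment genes, Cbx3, which codes for the heterochromatin protein HP1 gamma, had 8438 and 8196 normalised counts in the double knockout, 3387 and 4223 in the single knockout and 7013 and 8317 in wild type (log2 difference 1.14, SE 0.167, adjusted p = 0.00160). Igf2bp3, an RNA-binding protein of early development, had 5922 and 6903 in the double knockout, 2345 and 2665 in the single knockout and 4909 and 5219.7 in wild type. Serbp1, another RNA-binding protein, had 21951 and 23295 in the double knockout, 13292 and 14154 in the single knockout and 25288 and 26199 in wild type. In these 3 genes no single knockout library reached any double knockout or Pali wild type library of day 4. Cycs, which codes for cytochrome c of the respiratory chain, had 3647 and 3455 in the double knockout, 1555 and 1839.9 in the single knockout and 2858 and 3721 in wild type. Pdia4, a protein disulfide isomerase, had 5054 and 4491 in the double knockout, 2519.6 and 2372 in the single knockout and 4425 and 4759.7 in wild type. Gadd45a, a stress-induced gene linked to DNA demethylation, had 641 and 891 in the double knockout, 188 and 259 in the single knockout and 599 and 664 in wild type (log2 difference 1.76, SE 0.189, adjusted p = 7.25e-05). Cycs, Pdia4 and Gadd45a kept their calls whichever of the 4 libraries was left out. Tcf7l1, a Wnt pathway repressor, differed from these in its wild type level, with 565 and 578 in the double knockout, 322 and 250.3 in the single knockout and 316 and 174 in wild type. It lost its call when any 1 of the 4 libraries was left out, with adjusted p up to 0.308.

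The segment stood apart at every day. Its median log2 difference, double minus single knockout, was 0.94 at day 0, 0.96 at day 4 and 0.92 at day 8. Against wild type of the same day, the median for the double knockout was 0.01 at day 0, 0.07 at day 4 and 0.05 at day 8. For the single knockout it was -0.93 at day 0, -0.91 at day 4 and -0.94 at day 8. Among the Pali lines the single knockout was thus the one that lay apart. In the C129 wild type line the segment also lay below Pali wild type. Its medians there were -0.74 at day 0, -0.74 at day 4 and -0.45 at day 8. These comparisons share libraries. In 5 Mb bins with at least 8 genes, the 4 bins of the segment had median differences of 0.88 to 1.02 at day 4, and the other 403 bins lay between -0.24 and 0.35. DNA copy number was not measured, and its part in these values was not tested.

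**Figure D2:**
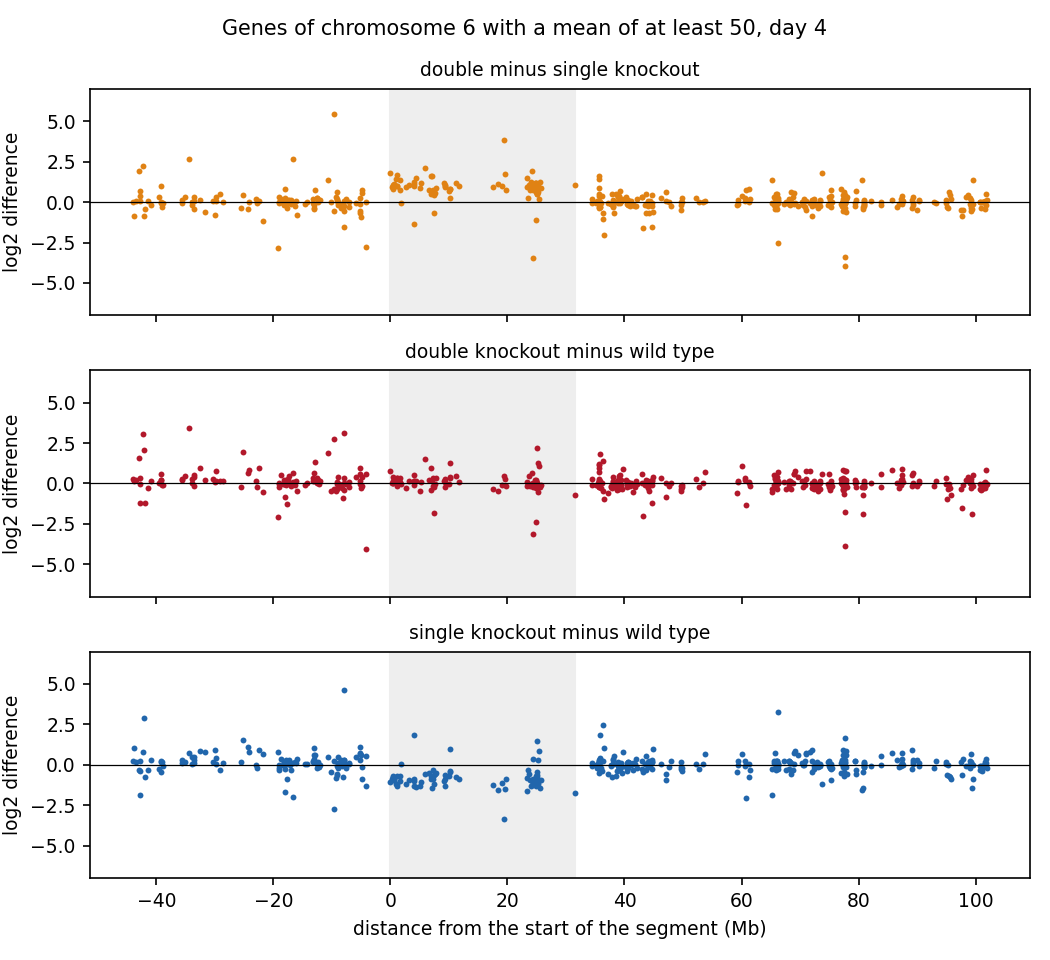
Genes of chromosome 6 with a mean of at least 50 normalised counts are placed by their distance from the start of the segment (Mb, x axis, segment shaded) and their log2 difference at day 4 (y axis). Inside the shading the median is 0.96 for double minus single knockout, 0.07 for double knockout minus wild type and -0.91 for single knockout minus wild type.

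**Figure D3:**
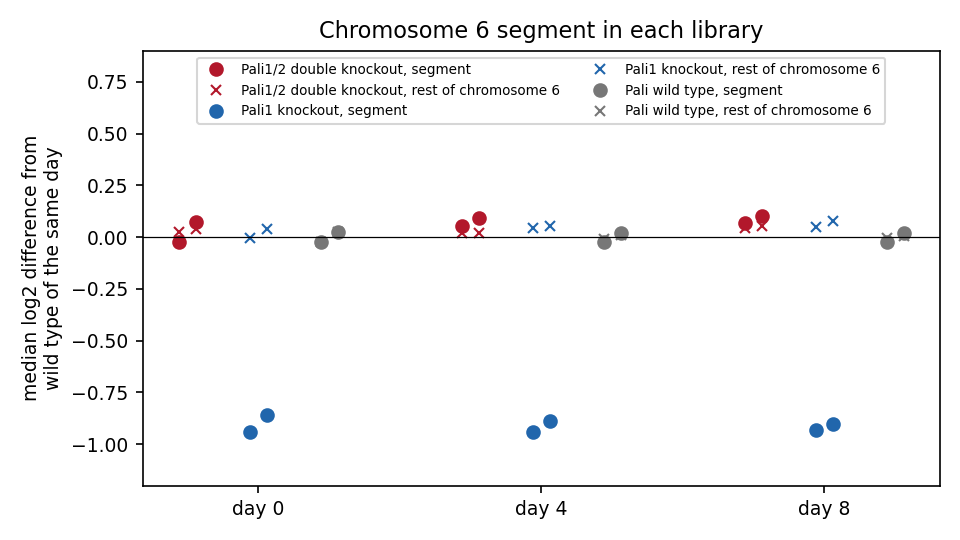
Circles are the median log2 difference of the 80 segment genes from wild type of the same day in each library, and crosses that of the rest of chromosome 6. The single knockout circles lie between -0.94 and -0.86 over the 3 days, and those of the double knockout and Pali wild type between -0.02 and 0.10.

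Outside the segment, the largest called rises included regulators of the forebrain and eye. Fezf2, a forebrain zinc finger factor (chromosome 14, 12338992 to 12346803), had 40.4 and 195 normalised counts in the double knockout, 0.968 and 5.26 in the single knockout and 6.34 and 6.59 in wild type (log2 difference 3.79, SE 0.649, adjusted p = 0.00540). Six6, a homeobox factor of the eye and hypothalamus (chromosome 12, 72939882 to 72944899), had 127 and 538 in the double knockout, 19.4 and 30.7 in the single knockout and 34.4 and 88.9 in wild type (log2 difference 3.23, SE 0.607, adjusted p = 0.0100). Sox21, a neural progenitor factor (chromosome 14, 118233233 to 118237030), had 131 and 569.7 in the double knockout, 16.5 and 41.2 in the single knockout and 42.6 and 72.4 in wild type (log2 difference 3.19, SE 0.639, adjusted p = 0.0163). In these 3 genes both double knockout libraries exceeded every single knockout and wild type library, and replicate 2 was far above replicate 1.

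Promoter sequence is shown for Six6 and Fezf2 among the rises and for Nnat and Mthfd1 among the falls, since CG-rich promoters are where PRC2 sits. Each line gives the 250 bases before 1 annotated start of the gene, from RefSeq on GRCm38.p6, 5' to 3' on the strand of the gene, with CG dinucleotides in capitals. For Fezf2 and Mthfd1 this start lies inside the gene's annotated span, so the window does too.
Six6, chr12:72939632-72939881, plus strand: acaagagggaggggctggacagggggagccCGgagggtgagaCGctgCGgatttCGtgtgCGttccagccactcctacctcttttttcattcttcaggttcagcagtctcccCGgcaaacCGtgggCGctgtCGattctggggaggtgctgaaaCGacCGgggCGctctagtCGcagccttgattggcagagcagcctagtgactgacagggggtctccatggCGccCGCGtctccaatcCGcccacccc
Fezf2, chr14:12345866-12346115, minus strand: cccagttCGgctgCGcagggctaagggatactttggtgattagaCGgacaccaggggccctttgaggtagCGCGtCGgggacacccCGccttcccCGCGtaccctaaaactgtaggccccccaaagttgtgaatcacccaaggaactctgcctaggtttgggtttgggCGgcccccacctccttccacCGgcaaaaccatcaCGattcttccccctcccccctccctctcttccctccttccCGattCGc
Nnat, chr2:157559828-157560077, plus strand: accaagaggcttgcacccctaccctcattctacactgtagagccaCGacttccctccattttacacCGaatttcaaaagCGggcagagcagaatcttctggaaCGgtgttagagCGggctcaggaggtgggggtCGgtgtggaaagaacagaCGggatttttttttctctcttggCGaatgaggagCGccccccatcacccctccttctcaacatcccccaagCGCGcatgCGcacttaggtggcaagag
Mthfd1, chr12:76254982-76255231, plus strand: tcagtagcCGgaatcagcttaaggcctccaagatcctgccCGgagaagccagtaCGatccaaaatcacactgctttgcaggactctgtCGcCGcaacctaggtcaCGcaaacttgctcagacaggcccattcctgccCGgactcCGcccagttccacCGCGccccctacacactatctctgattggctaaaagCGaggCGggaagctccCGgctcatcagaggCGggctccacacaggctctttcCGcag
They hold 17, 14, 12 and 15 CG dinucleotides. A promoter was found for 76 of the 101 rises outside the segment, 49 of the 71 falls and 12006 of the 15712 genes tested. The median number of CG, which reads the same on both strands, was 14.5 in the rises, 13 in the falls and 15 in all genes tested. At least 10 were held by 76.3% of the rises, 77.6% of the falls and 68.4% of all genes with a promoter. These are counts of letters and say nothing of binding.

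Lhx5, a LIM homeobox factor of the forebrain, had 49.0 and 137 normalised counts in the double knockout, 13.6 and 9.64 in the single knockout and 10.9 and 17.6 in wild type (log2 difference 2.48, SE 0.563, adjusted p = 0.0353). Six3, an anterior neural factor, was at 10.6 and 26.4 in the double knockout and 2.90 and 0 in the single knockout, and Six3os1, a noncoding RNA beside it, at 122 and 333 in the double knockout and 9.93 and 20.4 in the single knockout. Their annotated spans overlap, and the labels do not say whether counting used strand, so their reads may be shared. Zbtb16, a zinc finger factor, had 64.4 and 182 in the double knockout and 13.6 and 1.75 in the single knockout. Sema3a, a secreted axon guidance cue, had 107 and 437 in the double knockout and 17.5 and 20.5 in the single knockout. Each of these was above its single knockout level in both double knockout libraries, again with replicate 2 the higher. Without double knockout replicate 2 none of Fezf2, Six6, Sox21, Lhx5, Six3, Six3os1, Zbtb16 and Sema3a was called, with adjusted p from 0.0820 to 0.347. Without double knockout replicate 1 all 8 were called, with adjusted p from 0.00169 to 0.0331. Without single knockout replicate 1 all but Zbtb16 lost their call (adjusted p 0.0802 to 0.193), and without single knockout replicate 2 Zbtb16, Lhx5, Six3 and Sema3a did (adjusted p 0.0505 to 0.315). Over the 101 rises outside the segment, replicate 2 was above replicate 1 in 81, against 49% of all genes tested. More cells of a type and more RNA per cell cannot be told apart in such bulk libraries.

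Of 41 neuroectoderm and neural regulators tested, 3 rose (Sox21, Lhx5, Six3) and 2 fell (Olig1, Dll3). Over all genes tested 0.929% rose and 0.452% fell, the shares against which this and the following list counts are to be read. The median difference was 0.52, with 30 members above 0. Olig1, an oligodendrocyte lineage factor (chromosome 16, 91269769 to 91271939), had 87.5 and 120.2 normalised counts in the double knockout, 347 and 386 in the single knockout and 339 and 471 in wild type (log2 difference -1.80, SE 0.257, adjusted p = 0.00137). Here the single knockout lay near wild type and the double knockout was the lower line, and the call held whichever library was left out. Dll3, a Notch ligand and the 1 fall of 20 Notch pathway genes, had 69.2 and 59.6 in the double knockout, 136 and 149 in the single knockout and 72.5 and 87.8 in wild type. It lost its call without any 1 library, with adjusted p up to 0.183.

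Of 116 Polycomb target regulators (developmental transcription factors), 81 passed the filter on low values. Of these, 2 rose, among them Six3, and 1 fell (Olig1), with a median of 0.32 and 62 members above 0. Of 14 PRC2 subunits and 25 PRC1 subunits 0 were called by limma, with medians of -0.01 and 0.04. Of the 14 PRC2 subunits, 1 lay in the chromosome 6 segment, and the median of the others was -0.03. The catalytic subunit Ezh2 was listed at 0 in libraries of each line (values given further below), so these counts do not show its level. At an unadjusted p under 0.05 the PRC2 list had 0 higher and 1 lower and the PRC1 list 3 higher and 0 lower. Over all 15712 genes tested 1893 lay under 0.05 unadjusted (limma), the share against which such counts here and below are to be read. Suz12, a core subunit of PRC2, was at 5599.7 and 5426 in the double knockout and 5362 and 5624 in the single knockout (log2 difference 0.01, SE 0.152, adjusted p = 1). Rbbp7, a histone-binding subunit, was at 6503 and 7760.0 in the double knockout and 8164 and 9327 in the single knockout (log2 difference -0.30, SE 0.118, adjusted p = 0.285). Phc1, a PRC1 subunit, was at 3979 and 2657 in the double knockout and 4116 and 3266 in the single knockout (log2 difference -0.17, SE 0.357, adjusted p = 0.948).

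Of 26 BMP pathway genes 2 rose and 0 fell, with a median of 0.58. Both were inhibitors of basic helix-loop-helix factors that respond to BMP signals. Id1 had 212 and 425 normalised counts in the double knockout, 77.4 and 85.0 in the single knockout and 69.8 and 154 in wild type (log2 difference 1.84, SE 0.330, adjusted p = 0.00745). Id2 had 371 and 942 in the double knockout, 127 and 184 in the single knockout and 116 and 177 in wild type (log2 difference 1.93, SE 0.377, adjusted p = 0.0142). For both, the double knockout lay above every other library of day 4 shown here, and neither call held without double knockout replicate 2 (adjusted p = 0.117 and 0.187) or without single knockout replicate 1 (adjusted p = 0.0802 and 0.160). Cdh11, a mesenchymal cadherin, had 223 and 200.3 in the double knockout, 58.1 and 78.9 in the single knockout and 77.0 and 69.2 in wild type. It was the 1 rise of 24 cadherins and regulators of epithelial to mesenchymal transition and lost its call without any 1 library (adjusted p up to 0.211).

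**Figure D4:**
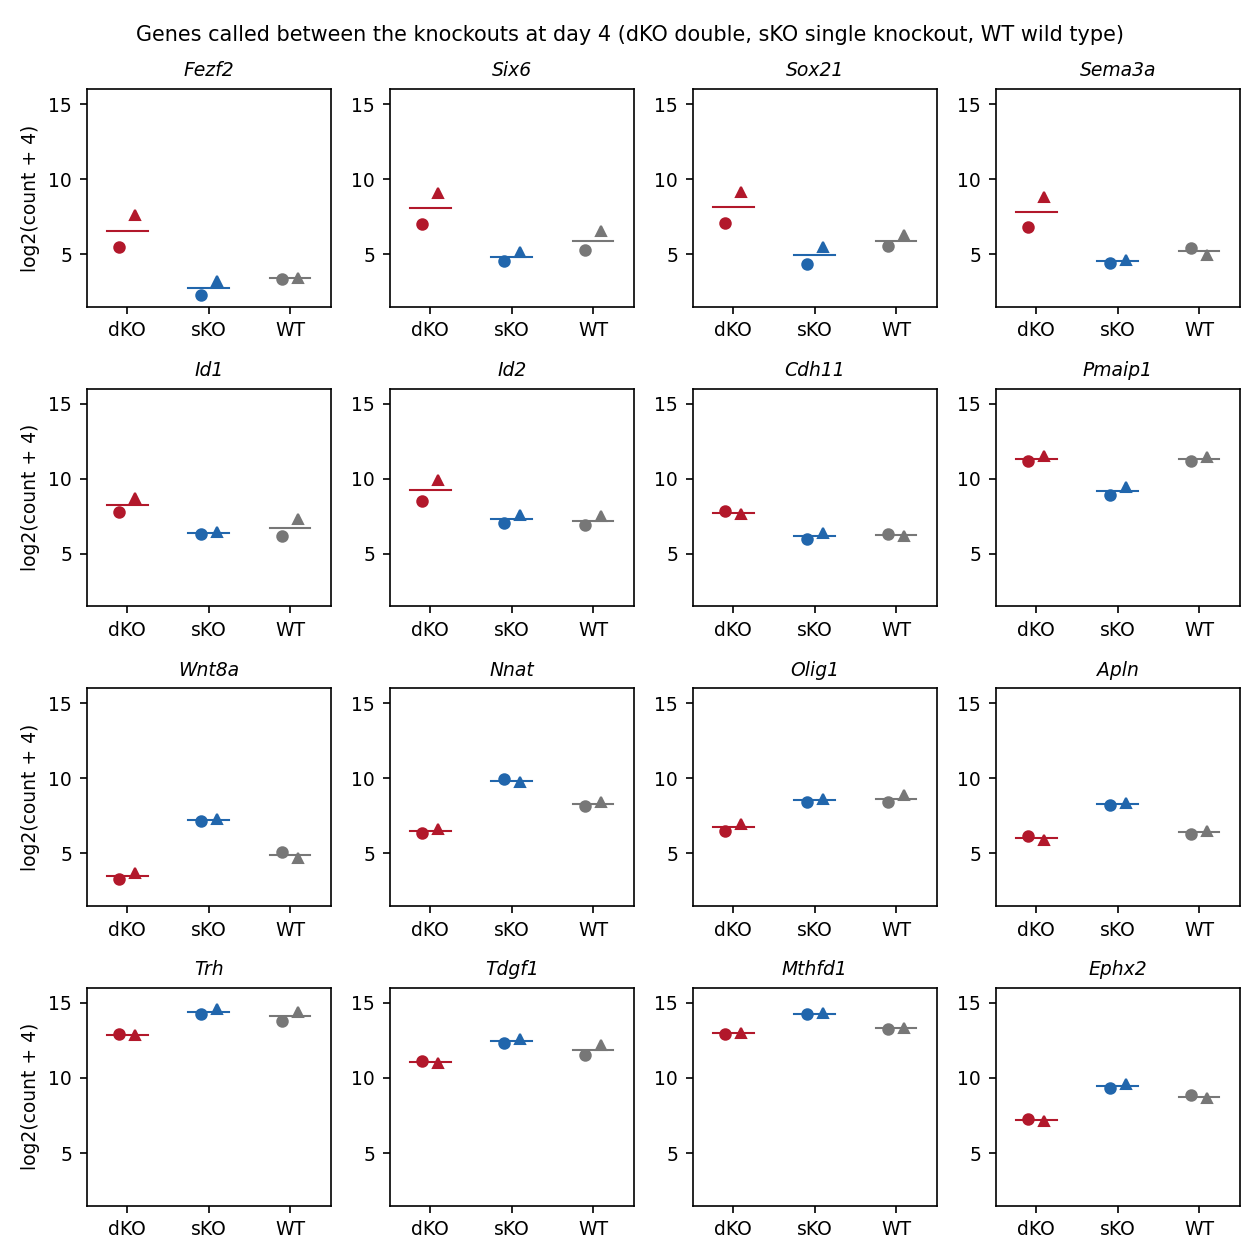
Levels of 16 called genes on day 4 are drawn as log2(normalised count + 4), with circles for replicate 1, triangles for replicate 2 and a line at the mean of each group. In Fezf2, Six6, Sox21, Sema3a, Id1 and Id2 the double knockout (dKO) lies highest, with its triangle above its circle, and in Wnt8a, Nnat, Apln and Mthfd1 the single knockout (sKO) lies highest.

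Several falls were higher in the single knockout than in both the double knockout and Pali wild type. Nnat, an imprinted gene of neural tissue (chromosome 2, 157560078 to 157562525), had 77.1 and 96.6 normalised counts in the double knockout, 972 and 869 in the single knockout and 276 and 341 in wild type (log2 difference -3.35, SE 0.340, adjusted p = 4.19e-05). Wnt8a, a Wnt ligand of the early embryo (chromosome 18, 34542327 to 34548061), had 5.77 and 8.79 in the double knockout, 136 and 152 in the single knockout and 29.9 and 22.0 in wild type (log2 difference -3.73, SE 0.518, adjusted p = 0.000950). Mthfd1, an enzyme of folate one-carbon metabolism (chromosome 12, 76254406 to 76319820), had 7818 and 8300.4 in the double knockout, 19219.8 and 20791 in the single knockout and 10018 and 10157 in wild type (log2 difference -1.31, SE 0.126, adjusted p = 2.60e-05). In all 3 the groups did not overlap, the double knockout was lowest, and the call held whichever library was left out.

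Ephx2, soluble epoxide hydrolase, had 148 and 139 normalised counts in the double knockout, 645 and 762 in the single knockout and 456 and 399.9 in wild type (log2 difference -2.25, SE 0.325, adjusted p = 0.00145). Acot1, a cytosolic acyl-CoA thioesterase, had 313 and 328 in the double knockout, 858 and 1064 in the single knockout and 500.3 and 692 in wild type. Both calls held whichever library was left out, with adjusted p up to 0.0198 and 0.0464. Apln, which codes for the peptide apelin, had 68.2 and 56.7 in the double knockout, 300.1 and 324 in the single knockout and 75.2 and 86.7 in wild type (log2 difference -2.25, SE 0.392, adjusted p = 0.00618), and its adjusted p ran from 0.0265 to 0.0559 as single libraries were left out. Trh, which codes for thyrotropin-releasing hormone, had 7826 and 7345 in the double knockout, 19423 and 24269.7 in the single knockout and 14466 and 21416 in wild type and was the 1 fall of 16 genes on the endoderm list. In each of these 4 genes the double knockout lay below every other library shown. The adjusted p of Trh was 0.0708 without double knockout replicate 2 and 0.123 without single knockout replicate 2.

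Against wild type, the called genes followed different orders, and these values share libraries with the comparison above. Fezf2 differed from wild type by 3.17 on the log2 scale in the double knockout (limma, adjusted p = 0.0184) and by -0.63 in the single knockout (adjusted p = 0.761). Lhx5, Six3os1 and Sema3a were also called in the double knockout against wild type (limma, adjusted p = 0.0461, 0.0136 and 0.0289). Six6, Sox21, Zbtb16 and Six3 were not (limma, adjusted p = 0.0777, 0.0852, 0.0889 and 0.168). Olig1 differed by -1.92 in the double knockout (limma, adjusted p = 0.00113) and by -0.12 in the single knockout (adjusted p = 0.915). In Mthfd1 it was the single knockout that stood off. Mthfd1 differed by -0.32 in the double knockout (limma, adjusted p = 0.229) and by 0.99 in the single knockout (adjusted p = 0.000207). Nnat lay on opposite sides, at -1.78 in the double knockout (limma, adjusted p = 0.0121) and 1.57 in the single knockout (adjusted p = 0.0165).

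Of 18 primed epiblast genes 2 fell (Wnt8a, Dnmt3a) and 0 rose, with a median of -0.25. Dnmt3a, a de novo DNA methyltransferase, had 3367 and 2536 normalised counts in the double knockout, 4736 and 4628 in the single knockout and 2985 and 3177 in wild type. Its adjusted p by limma was 0.0426, and 0.375 without double knockout replicate 2, and the call held only when double knockout replicate 1 was the library left out. Of 28 genes of naive and core pluripotency 1 fell, Tdgf1, a co-receptor of Nodal, which was also the 1 fall of 24 Nodal and activin pathway genes. Tdgf1 had 2242 and 2006 in the double knockout, 5151 and 6085 in the single knockout and 2949 and 4762 in wild type, and its call was lost without any 1 library. Pou5f1, the core pluripotency factor, was at 12329 and 8509 in the double knockout and 17511 and 17082 in the single knockout without a call (adjusted p = 0.175). The naive marker Zfp42 was at 1525 and 1197 in the double knockout and 753 and 663 in the single knockout (adjusted p = 0.168). The naive markers Klf4, Tfcp2l1 and Esrrb had the opposite sign, with log2 differences of -0.789, -0.295 and -0.259. None of them was called (limma, adjusted p = 0.373, 0.754 and 0.769), and in Esrrb the libraries of the knockouts overlapped. The naive markers thus did not move in 1 direction. The Wnt pathway list of 46 had 2 falls (Wnt8a, Tcf7) and 1 rise (Tcf7l1 of the segment). Tcf7, a transcription factor of the pathway, was at 1109 and 949 in the double knockout and 1722 and 1577 in the single knockout (limma, adjusted p = 0.0490, and up to 0.326 without 1 library).

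Of 52 imprinted genes 1 fell (Nnat) and 1 rose (Mest). Mest, a hydrolase gene on chromosome 6 outside the segment, had 3167 and 6787 normalised counts in the double knockout, 604 and 857 in the single knockout and 2845 and 2994 in wild type. Its call was lost without any 1 library (adjusted p from 0.0581 to 0.330). Of 23 p53 targets 1 rose, Pmaip1, which codes for the pro-apoptotic protein NOXA, with 2300.1 and 2934 in the double knockout, 484 and 679.9 in the single knockout and 2282 and 2841 in wild type (log2 difference 2.17, SE 0.290, adjusted p = 0.000672). The call of Pmaip1 held whichever library was left out, and its double knockout level lay near that of wild type. Ifitm3, an interferon-induced membrane protein, was the 1 rise of 23 interferon response genes, with 919.8 and 775 in the double knockout, 405 and 480.1 in the single knockout and 864 and 833 in wild type. Its call was lost without double knockout replicate 1 (adjusted p = 0.0882) and without single knockout replicate 1 (adjusted p = 0.137).

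Of 25 enzymes of threonine, glycine and serine one-carbon metabolism 2 fell, Mthfd1 and Shmt1. Shmt1, a serine hydroxymethyltransferase, was at 1743 and 2005 normalised counts in the double knockout and 2223 and 2511 in the single knockout (limma, adjusted p = 0.0412, and 0.280 without double knockout replicate 1), and its call held only when double knockout replicate 2 was left out. Of 39 cytoplasmic ribosomal protein genes 2 fell, and the median was -0.26, which stayed below 0 under TMM and upper-quartile rescaling. At an unadjusted p under 0.05 this list had 0 higher and 28 lower, against 1893 of all 15712 genes tested in either direction. Rpl13, of the large ribosomal subunit, had 25849.6 and 26581 in the double knockout and 32233 and 33416 in the single knockout (log2 difference -0.32, SE 0.0662, adjusted p = 0.0181). Rps27a, of the small subunit, had 15916 and 20607 in the double knockout and 23673 and 25512 in the single knockout. Rpl13 lost its call without any 1 library, and Rps27a kept it only without double knockout replicate 2. Of 34 nuclear-encoded respiratory chain genes 1 rose, Cycs of the segment, while the median was -0.16 and 4 members were above 0. At an unadjusted p under 0.05 the respiratory list had 1 higher and 15 lower. Of 28 proliferation genes 1 fell, the replication helicase subunit Mcm6, which lost its call without any 1 library, with a median of -0.16 and 2 higher and 10 lower at an unadjusted p under 0.05.

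Markers of other cell types that the aggregates could hold had few calls. Of 34 markers of visceral and extraembryonic endoderm 1 rose, with a median of 0.62. Their summed level was 38856 and 43937 normalised counts in the double knockout, 32274 and 28189 in the single knockout and 52745 and 58913 in wild type. The rise was Lrp2, the endocytic receptor megalin, with 18652 and 18768 in the double knockout, 11694 and 7997 in the single knockout and 30302 and 25989.7 in wild type, and of the 4 omissions its call held only in that of single knockout replicate 1. Of 25 markers of fibroblasts, mesenchyme and smooth muscle 1 rose, with a median of 0.55. Their summed level was 29677 and 31546 in the double knockout, 19973 and 19453 in the single knockout and 38457 and 34415 in wild type. The rise was Tpm1, a tropomyosin, with 6929.8 and 6824 in the double knockout and 4332 and 4322 in the single knockout, and its call was lost without any 1 library. Sox17, a defining factor of endoderm, was near 0, at 1.11 and 7.70 in the double knockout and 0.966 and 0 in the single knockout. The part of these cell types in the gene changes was not tested.

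Several lists had 0 calls by limma. Primitive streak and mesoderm (27 tested, median 0.13) had 1 higher and 2 lower at an unadjusted p under 0.05. Under this threshold lay 1893 of all 15712 genes tested. Trophoblast and simple epithelium (18, median 0.38) had 2 higher and 1 lower, and blood and endothelium (15, median 0.31) had 1 higher and 0 lower. Genes of 2-cell-like cells (21, median -0.04) had 1 higher and 1 lower, and replication-dependent histones (46, median 0.00) had 0 higher and 1 lower. Cholesterol synthesis (23, median 0.04) had 1 higher and 0 lower, collagens and laminins (28, median 0.36) had 5 higher and 2 lower, and FGF and ERK feedback (22, median 0.15) had 1 higher and 1 lower. Eomes, a T-box factor of the streak, was at 133 and 96.6 in the double knockout and 255 and 231 in the single knockout (limma, adjusted p = 0.360). Krt8, a keratin of simple epithelium, was at 3018 and 3201 in the double knockout and 1124 and 1066 in the single knockout (limma, adjusted p = 0.0734). Germline and meiosis had 1 rise (Sycp1) and 1 fall (Dnd1) of 34, both lost without any 1 library (adjusted p up to 0.264 and 0.340). The list of DNA methylation enzymes had 1 rise (Gadd45a) and 1 fall (Dnmt3a) of 14. Glycolysis and hypoxia had 1 rise of 36, the glucose transporter Slc2a3, with a median of -0.09. Slc2a3 was not called in 10 of 16 alternatives, among them TMM and upper-quartile rescaling and 3 of the 4 omissions (adjusted p up to 0.400). Heat shock and unfolded protein response had 1 rise of 18, Pdia4 of the segment.

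**Figure D5:**
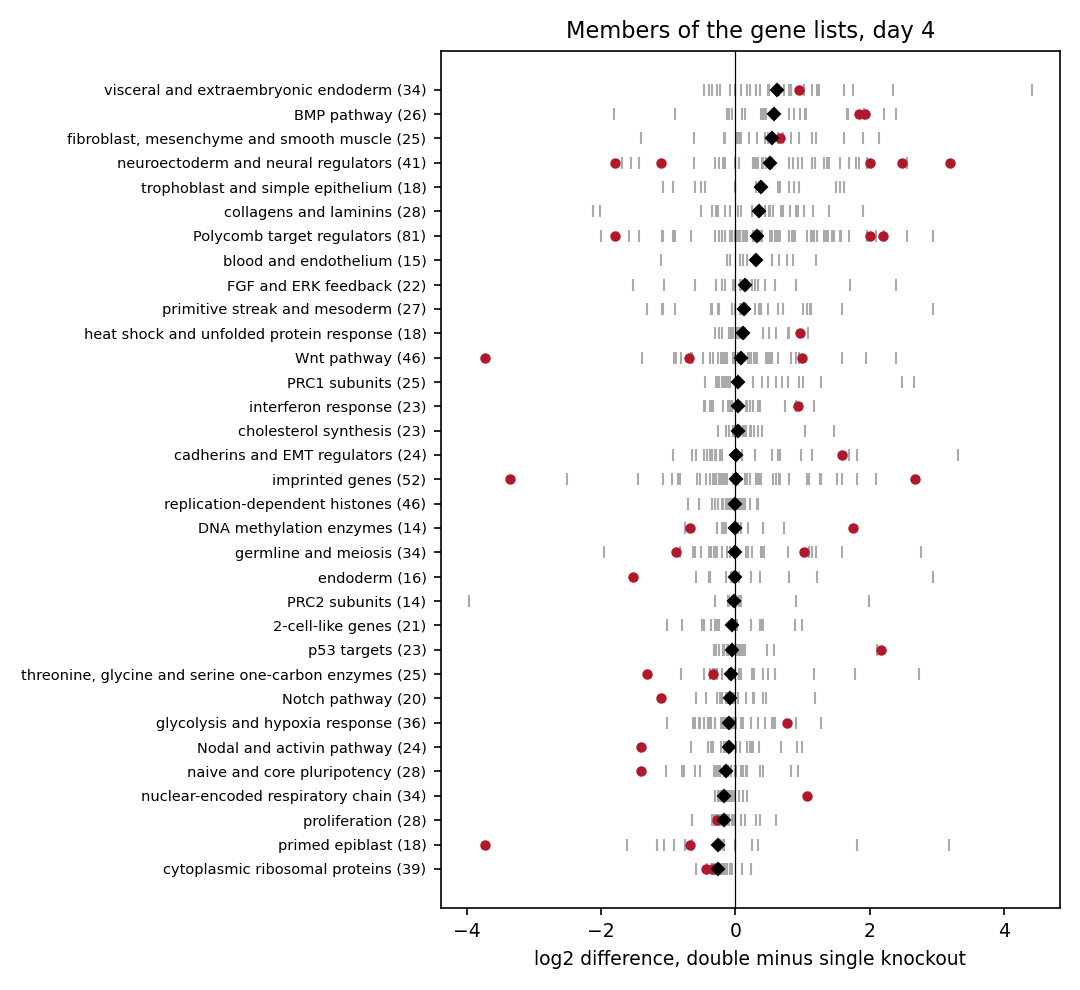
Each row is a gene list with at least 10 tested members (number in brackets), and the x axis is the log2 difference, double minus single knockout, at day 4. Grey ticks are members without a call, red points called members and black diamonds list medians, which run from -0.26 for cytoplasmic ribosomal proteins to 0.62 for visceral and extraembryonic endoderm.

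Some of the largest differences sat at genes with values at or near 0 in 1 line. Tmsb4x, an actin-binding peptide gene on the X chromosome, was at 683 and 793 normalised counts in the double knockout, was listed at 0 in both single knockout libraries and was at 342 and 481 in wild type. It was listed at 0 in 10 of the 30 libraries, and no fold is given. Setd1b, a histone H3 lysine 4 methyltransferase, was at 334 and 301 in the double knockout, 0.968 and 0 in the single knockout and 359 and 283 in wild type (limma, adjusted p = 1.08e-05). With the single knockout near 0 its log2 difference is set by the pseudocount, at 7.82 with a pseudocount of 1 and 4.34 with 16, and gives no fold. Ptgfrn, a membrane glycoprotein, was at 45.2 and 47.9 in the double knockout, 1395 and 1323 in the single knockout and 969.7 and 412 in wild type. The duplicates of each knockout lay close together in these 3 genes. Klc2, a kinesin light chain, was at 52.9 and 0 in the double knockout and 277 and 247 in the single knockout, and Man2c1, an alpha-mannosidase, at 3.84 and 66.5 in the double knockout and 208 and 199 in the single knockout. The Golgi mannosidase Man2a2 was at 611 and 308 in the double knockout and 9.68 and 101 in the single knockout. Of the 4 omissions, Klc2 and Man2c1 kept their calls in 1 each, Ptgfrn in 2 and Man2a2 in 3. Ezh2, the catalytic subunit of PRC2, was at 50.0 and 0 in the double knockout, 0 and 11.4 in the single knockout and 0 in both wild type libraries, although embryonic stem cells use it. A value at or near 0 in this table can therefore be a failed estimate, and for the genes above this was not tested. Other large rises were Serpini1, a neuronal serpin, at 124 and 93.8 in the double knockout and 15.5 and 0 in the single knockout, and Sorcs1, a sorting receptor, at 149 and 260.3 in the double knockout and 28.0 and 12.7 in the single knockout. Sorcs1 lost its call without any 1 library, and Serpini1 kept it only without single knockout replicate 1. Further large falls were Vstm2l, Zfp951 and Nt5e, each lost without any 1 library.

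Setting the day 4 calls beside other days sets the segment apart from the rest. Of the 45 segment rises, 38 were also called higher at day 0, where 2.04% of the genes tested were called higher, and 35 at day 8, where 0.936% were. Of the 101 other rises, 25 were also called higher at day 0 and 5 at day 8, and 4 were called lower at day 8. Their median difference was 0.59 at day 0, 1.43 at day 4 and 0 at day 8. Of the 71 falls, 12 were also called lower at day 0, where 1.04% of genes were called lower, and 5 at day 8, where 0.439% were. Their median was -0.28 at day 0, -0.97 at day 4 and -0.14 at day 8. The days do not share libraries, but the genes were chosen for their difference at day 4.

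The test of the difference between days called 9 genes for day 4 against day 0 (0.0573% of the genes tested) and 59 for day 4 against day 8 (0.376%). Mthfd1 was in both. It had 8504 and 8309 normalised counts in the double knockout and 9214 and 9318 in the single knockout at day 0, and 5533 and 6315 against 8852 and 7081 at day 8. Its gap was widest at day 4. Six6 had 207 and 198 in the double knockout and 462 and 419.6 in the single knockout at day 8. Sema3a had 632 and 459 in the double knockout and 1145 and 1043 in the single knockout at day 8, and Zbtb16 333 and 232 against 603 and 716. In Six6, Sema3a and Zbtb16 the double knockout lay above the single knockout at day 4 and below it at day 8, where the difference was not called (limma, adjusted p = 0.497, 0.533 and 0.468). Lrp2 had 8303 and 7855 in the double knockout and 14257 and 16594 in the single knockout at day 8, also the opposite order to day 4, and here the day 8 difference was called (limma, adjusted p = 0.0216). Nnat was lower in the double knockout at each day, with 35.6 and 50.5 against 95.1 and 94.2 in the single knockout at day 0 and 739 and 826 against 2115 and 2095 at day 8.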

How the data were processed

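RNA from duplicate libraries of 5 lines at 3 days was measured by stranded total RNA sequencing after ribosomal RNA removal, per the labels' protocols. The deposited values are normalised counts, a signal made by the authors. Per the submitters' processing notes, HISAT2 2.0.5, kallisto 0.43.1 and DESeq2 were used, with mm10 as the build. Between 81.4% and 86.2% of values per library were whole multiples of 1 step (tolerance 0.001), so reads were not recovered and no count test was run. Estimated depth from these steps was 13198314 to 28151978 reads.

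Genes with at least 10 normalised counts in at least 2 libraries were tested (15712 of 20563 symbols). limma 3.58.1 in R 4.3.3 was fitted to log2(value + 4) over all 30 libraries, with 1 mean per group, 15 residual degrees of freedom, trend and robust moderation and Benjamini-Hochberg adjustment. Groups followed the sample titles. Positions and promoters came from RefSeq (GRCm38.p6), where 20004 symbols matched directly and 515 as synonyms.

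Named genes were the 12 largest called rises and falls that averaged 50 or more without overlap between groups, called members of gene lists (up to 4 in each direction), the 2 most abundant members of lists with no call, Lcor and Lcorl, and the 3 largest differences between days in each direction. Segment genes other than list members, Pou5f1, Zfp42, Klf4, Tfcp2l1, Esrrb, Fgf5, Sox17 and Ezh2 were added. A few results that met these rules are not reported here. The comparison and lists were chosen with earlier results of these data known. Alternatives changed the pseudocount, filter, scaling, libraries, moderation and replicate block, and left out each library.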

Additional observations from a re-analysis of the deposited data

Results flagged for a closer look

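The test of whether the double minus single knockout difference at day 4 differs from that at another day (limma, adjusted over all genes tested) called the genes below, among others. Values are the day 4 difference minus that of the other day, on the log2 scale. The day 4 libraries enter both tests, so the 2 tests share them.

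Against day 0, the value was 6.84 (adjusted p = 0.000813) for Setd1b, 2.08 (adjusted p = 0.0192) for Sfrp1, a secreted Wnt inhibitor, and 0.805 (adjusted p = 0.0358) for Galnt11, a glycosyltransferase. In these the difference was higher at day 4. It was lower at day 4 for Sema6a, a semaphorin, at -3.43 (adjusted p = 0.00272), Dll3 at -1.94 (adjusted p = 0.0358) and Mthfd1 at -1.17 (adjusted p = 0.0150). Sfrp1 had 3746 and 4752 normalised counts in the double knockout and 3869.9 and 4015 in the single knockout at day 4, and 1503 and 1653 against 6529 and 5991 at day 0. Sema6a had 2950.5 and 2543 in the double knockout and 3981 and 3521 in the single knockout at day 4, and 516 and 507 against 63.3 and 59.5 at day 0.

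Against day 8, the value was 7 (adjusted p = 4.13e-08) in Tmsb4x, 6.23 (adjusted p = 0.000755) in Setd1b, 4.72 (adjusted p = 0.0336) in Zbtb16, 4.34 (adjusted p = 0.0389) in Six6 and 4.29 (adjusted p = 0.0371) in Sema3a. The value of Tmsb4x, and those of Setd1b against both days, depend on the pseudocount, since both genes were at or near 0 in both single knockout libraries at day 4. Id1 was at 2.44 (adjusted p = 0.0336) and Lrp2 at 1.88 (adjusted p = 0.00408). The difference was lower at day 4 for Dnah8, an axonemal dynein, at -1.72 (adjusted p = 0.0389), Angptl4, a secreted lipase inhibitor, at -1.38 (adjusted p = 0.0370), Rps24, a ribosomal protein, at -1.09 (adjusted p = 0.0201), Mthfd1 at -0.889 (adjusted p = 0.0389) and Etv5, a factor downstream of FGF, at -0.607 (adjusted p = 0.0389). Dnah8 had 186 and 185 in the double knockout and 583 and 479 in the single knockout at day 4, and 1485 and 1396 against 1267 and 1195 at day 8.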

How the results depend on the processing

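With the 4 compared libraries fitted alone limma called 0 genes, with 1859 at an unadjusted p under 0.05, a lowest adjusted p of 0.0759 and 2 residual degrees of freedom. Leaving out 1 of the 4 libraries gave 62 to 158 changed genes, against 217. Leaving the chromosome 6 segment out, an alternative chosen after seeing the data, gave 128. The other alternatives, apart from the replicate block, gave 173 to 276. Upper-quartile rescaling called 141 higher and 98 lower, and the 18 libraries of the Pali lines 159 higher and 117 lower. For day 4 against day 0 the omissions gave 5 to 19 genes, against 9. For day 4 against day 8 they gave 26 to 86, against 59, a pseudocount of 1 gave 31, a pseudocount of 16 gave 109 and a mean of at least 50 gave 39. The median of the segment ran from 0.946 to 1.01 under the omissions. The cause of these shifts was not tested. No called value of a named gene changed sign under any alternative.

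The replicate numbers were checked as a pairing by the correlation of deviations over all genes. It was 0.0235 between the knockouts at day 4 and 0.020 to 0.084 over 10 pairs of lines. Such a value cannot show whether some genes share a batch, which was not tested. With the replicate block within each day, 307 genes were called, 195 higher and 112 lower, of which 207 were among the 217. The block gave 9 genes for day 4 against day 0 and 109 for day 4 against day 8. Medians of imprinted genes and replication-dependent histones (0.014 and 0.0031) turned to -0.0019 and -0.012 under TMM rescaling and to -0.0095 and -0.020 under upper-quartile rescaling. The deposited values give no read counts, 2 libraries a line limit precision, and low genes are understated by the pseudocount.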

Other observations

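The chromosome 6 segment can be read in the other lines at day 4 by 10 Mb bins, as differences from Pali wild type. Bins between 40 and 80 Mb had medians of -0.67, -0.97, -0.96 and -0.71 in the C129 wild type line. In the Aebp2 gene trap line they were 0.10, -0.13, -0.26 and 0.12. The bin of 30 to 40 Mb, next to the segment, was at -0.72 in C129 wild type at day 4, -0.73 at day 0 and -0.07 at day 8, while double minus single knockout there was 0.00 at day 4.

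Runs were taken from a running median of the log2 difference over 7 genes past 0.5, so a member can itself lie on the other side. Outside the segment, this running median was lower in the double knockout along 16 neighbouring genes on chromosome 4 (145464210 to 147849126, GRCm38.p6, Smarca5-ps to Zfp933). It was higher along 11 protocadherin genes on chromosome 18, from Pcdhga4 to Pcdhga11. Clustered zinc finger and protocadherin genes share sequence, and the labels do not say how reads were divided among such copies.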
